A study of Juglans cathayensis with 6 samples.

Results

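Small heat shock proteins are chaperones that bind unfolding proteins and hold them in a state from which other chaperones can refold them. In plants the cytosolic kinds fall into classes by sequence, of which class I and class II are strongly induced by heat and many also appear during seed and fruit development. Their genes are switched on by heat stress transcription factors, and the clients they hold are handed to HSP70 and to the disaggregase HSP101. The genes described here are 7 assembled genes of *Juglans cathayensis*, the Chinese walnut, chosen by name from the deposited annotation, which describes 5 of them as class I, 1 as class II and 1 as class III heat shock proteins. They are 7 of 39234 genes in the expression table. The same annotation describes 12 genes as class I to III, and the other 5, all class I, were not among the chosen genes and are given beside them.

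RNA was taken from husk, the green flesh around the nut. Each of 2 varieties gave 3 libraries, and the varieties are recorded as brown or white by the colour that the husk shows when freshly cut. No special treatment was applied to either, and all 6 libraries carry a time label of 35 days with no starting event stated. Since each colour is 1 variety, colour and any other difference between the varieties cannot be told apart, and the labels do not say whether replicates are different trees, so a p-value reflects the spread of these libraries alone, and that spread may be technical. Levels are TPM, a transcript abundance corrected for gene length and scaled to a common total, as the authors deposited them. TPM keeps no read number, so depth is unknown and no detection floor can be given.

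White replicate 2 stood apart from the other libraries, with 28349 genes at 1 TPM or more against 33146 to 35240 in the other 5, and with 34.0% of its TPM in its 100 highest genes against 24.7% to 27.2%. The husk libraries held high levels of green tissue genes in both varieties, with the 47 listed photosynthesis genes summing to 11483, 5859 and 9719 TPM in brown and 8297, 10350 and 9547 TPM in white husk. None of these 47 passed the threshold (limma, adjusted p under 0.05), and 6 had an unadjusted p under 0.05. The share of all tested genes at that unadjusted level is not given, so such counts, here and below, cannot be set against the series. No list specific to husk cells was used. Across the series 3.83% of the 37829 genes tested were higher and 2.17% were lower in brown husk at that threshold, and the middle log2 fold change over those genes was 0.19 (brown minus white). This median was 0.02 with TMM factors and -0.01 with quantile normalization, so each log2 fold change of a member is also given after subtraction of 0.19.

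The most abundant small heat shock gene of white husk and the class II gene were lower in brown husk, at 0.271 and 0.207 times their white means, while 2 genes of low level were higher there. Of the 7 members, 2 were lower, an 18.5 kDa class I and a 17.1 kDa class II gene, and 2 were higher, a 17.3 kDa class I and a 17.4 kDa class III gene (limma, adjusted p under 0.05 over all genes), while 3 class I genes did not pass. Each direction thus held 28.6% of the 7 genes, against 3.83% higher and 2.17% lower among all genes tested. All 7 passed the filter of 1 TPM in at least 3 of 6 libraries, but the 2 higher genes passed it only through their brown libraries. The members were chosen with earlier results of this comparison known, so these counts and the values below describe the genes and are not independent evidence of a difference. In bulk RNA, fewer cells that express a gene and less of its RNA per cell cannot be told apart.

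**Figure D1:**
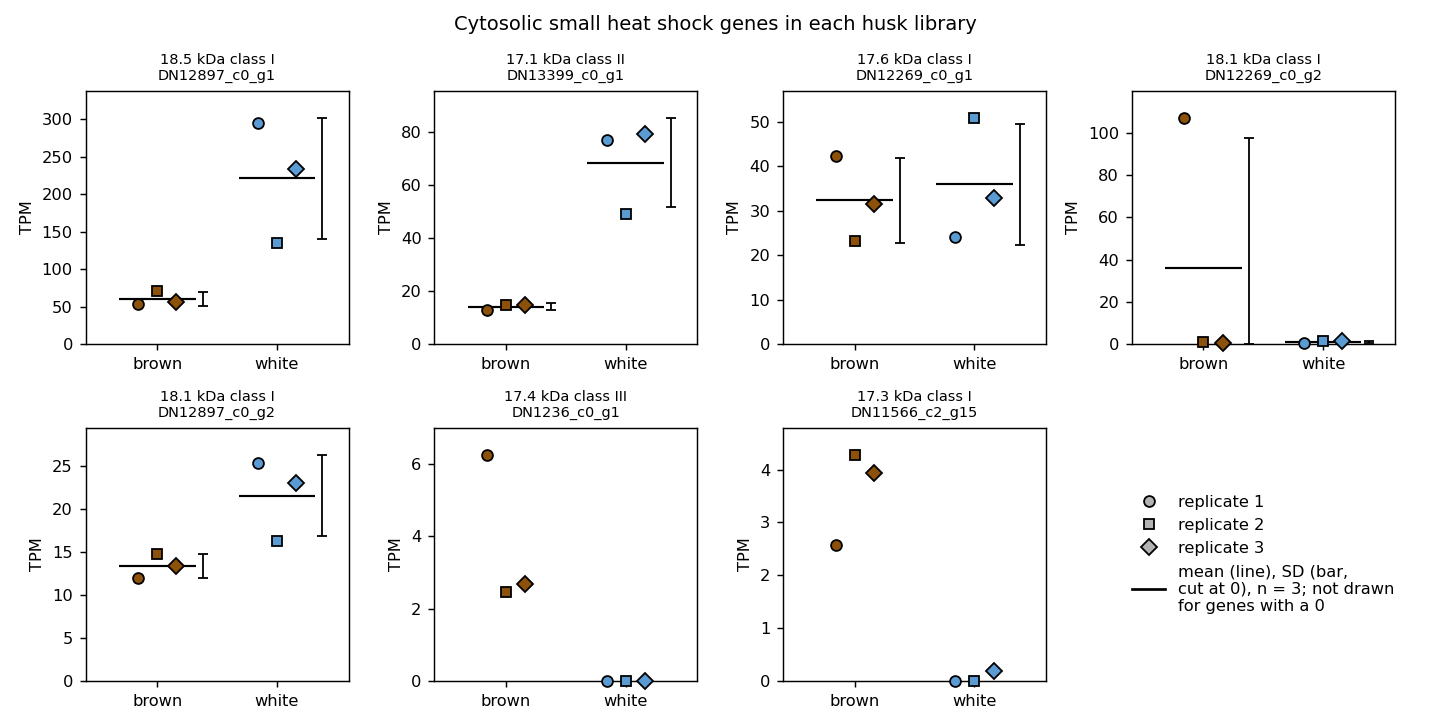
TPM of each of the 7 genes in the brown (left) and white (right) husk libraries, each panel on its own linear axis from 0, with marker shape for the replicate. Lines are group means and bars are SDs (n = 3), cut at 0. Neither is drawn for the 17.3 kDa and 17.4 kDa genes, which have libraries at 0. The 18.5 kDa class I and 17.1 kDa class II genes lie lower in every brown library than in any white one, and 1 of the 18.1 kDa genes is high in brown replicate 1 alone.

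The 18.5 kDa class I gene (TRINITY_DN12897_c0_g1, 766 bases) was the most abundant member in 5 of the 6 libraries. It had 53.4, 70.7 and 56.0 TPM in brown husk, against 295, 135 and 234 TPM in white husk. Every brown library lay below every white one, and white replicate 2 was the lowest of the white libraries. The means were 60.1 ± 9.34 TPM in brown and 221 ± 80.4 TPM in white husk (SD, n = 3 each), so the brown mean was 0.271 times the white mean. The log2 fold change was -1.80 ± 0.28 (SE, limma adjusted p = 0.0142), or -1.99 relative to all tested genes. By rank of TPM within a library it stood between 2201st and 3059th of 39234 genes in brown husk and between 430th and 1041st in white husk. The call was lost without brown replicate 1 (adjusted p = 0.0506), without brown replicate 3 (adjusted p = 0.0683) and without white replicate 3 (adjusted p = 0.0603), with log2 fold changes of -1.73, -1.76 and -1.73.

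Its assembly cluster holds a second class I gene of 18.1 kDa (TRINITY_DN12897_c0_g2, 876 bases, 4 assembled isoforms), and no further listed gene. This gene had 12, 14.78 and 13.4 TPM in brown husk and 25.4, 16.3 and 22.96 TPM in white husk. The groups did not overlap, though brown replicate 2 and white replicate 2 were close. The log2 fold change was -0.63 ± 0.20 (SE) with an adjusted p of 0.125 by limma, or -0.82 relative to all tested genes. It passed the threshold without white replicate 2 (log2 fold change -0.81, adjusted p = 0.0306), with TMM factors (adjusted p = 0.0158) and with quantile normalization (adjusted p = 0.0259). The 18.5 kDa gene exceeded its 18.1 kDa partner 4.45, 4.79 and 4.18 times in the brown libraries, and 11.6, 8.31 and 10.2 times in the white ones. Both partners were thus lower in every brown library, the 18.5 kDa gene by the larger factor. Genes of 1 assembly cluster can share reads, so the level of either partner alone is uncertain.

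The 17.6 kDa class I gene (TRINITY_DN12269_c0_g1, 783 bases, 3 isoforms) had similar ranges in the varieties. It had 42.3, 23.3 and 31.6 TPM in brown and 24.0, 50.9 and 32.9 TPM in white husk. The groups overlapped, and white replicate 2, the lowest white library for the 18.5 kDa gene, was the highest here. The log2 fold change was -0.12 ± 0.31 (SE, limma adjusted p = 0.859), or -0.31 relative to all tested genes, and its sign turned without white replicate 2 (0.16) or brown replicate 2 (0.09) and with array weights (0.06). In order of level it came directly after the 18.5 kDa gene in all 3 brown libraries and in white replicate 2, while the 17.1 kDa class II gene stood between them in white replicates 1 and 3.

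An 18.1 kDa class I gene of the same assembly cluster (TRINITY_DN12269_c0_g2, 424 bases) was set apart by a single library. It had 107 TPM in brown replicate 1, against 0.83 and 0.80 TPM in brown replicates 2 and 3 and 0.44, 1.59 and 1.30 TPM in the white libraries. In brown replicate 1 it was the most abundant member, with 45.3% of the summed TPM of the 7 genes, against 0.104% to 0.648% in the other 5 libraries. The log2 fold change was 1.79 ± 1.48 (SE, limma adjusted p = 0.533), or 1.6 relative to all tested genes, and without brown replicate 1 it was -0.17 (adjusted p = 0.858). Its partner, the 17.6 kDa gene, was 0.395 times its level in brown replicate 1, and 25.3 to 54.6 times its level in the other libraries.

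That gene is also the only member whose main description is not from *Juglans regia*, the common walnut. Its best description is a *Vitis vinifera* (grape) protein, whereas 92.6% of the 24054 described genes in the table are described from *Juglans regia*. A further class I gene outside the 7, an 18.2 kDa gene with an assembly of 250 bases (TRINITY_DN8876_c0_g1), has a *Vitis vinifera* description too. It was listed at 25.1 TPM in brown replicate 1 and at 0 in the other 5 libraries. Only 8 genes of the table had at least 10 TPM in brown replicate 1 and at least 10 times the level of every other library, a criterion set after these values were seen, and these 2 class I genes were among them. Of the 8, 5 had a description and none of those was from *Juglans regia*. White replicate 2 had 6 such genes, 5 of them described and again none from *Juglans regia*, and none of the 6 was a class I to III heat shock gene. Brown replicates 2 and 3 and white replicates 1 and 3 had 1, 0, 0 and 3 such genes.

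The 17.3 kDa class I gene (TRINITY_DN11566_c2_g15, 418 bases) was low in brown husk and at or near 0 in white husk. It was listed at 2.57, 4.28 and 3.93 TPM in brown and at 0, 0 and 0.19 TPM in white husk. The groups did not overlap. The log2 fold change was 2.10 ± 0.31 (SE, limma adjusted p = 0.0121), or 1.91 relative to all tested genes, and became 4.66 with a pseudocount of 0.1 TPM in place of 1 TPM. The call was lost without brown replicate 3 (2.03, adjusted p = 0.0598) and without white replicate 3 (2.18, adjusted p = 0.0507). Its assembly cluster holds 14 listed genes, of which it is the only one with an HSP20 domain, the conserved domain of small heat shock proteins. A longer 17.3 kDa class I gene outside the 7 (TRINITY_DN16891_c0_g1, 812 bases) went the other way, with 3.08, 3.0 and 4.75 TPM in brown and 21.4, 7.25 and 17.0 TPM in white husk.

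The 17.1 kDa class II gene (TRINITY_DN13399_c0_g1, 947 bases, 6 isoforms) represents the other heat-induced cytosolic class and was the only class II gene by this annotation. It had 12.7, 14.9 and 14.97 TPM in brown husk, against 76.9, 49.2 and 79.4 TPM in white husk. Every brown library lay far below every white one, and the brown libraries were close to each other. The means were 14.2 ± 1.27 TPM in brown and 68.5 ± 16.8 TPM in white husk (SD, n = 3 each), a brown mean 0.207 times the white mean. The log2 fold change was -2.16 ± 0.21 (SE, limma adjusted p = 0.00233), or -2.35 relative to all tested genes. It passed in all 6 fits that left out 1 library, with adjusted p-values no higher than 0.0196.

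The 17.4 kDa class III gene (TRINITY_DN1236_c0_g1, 361 bases) was listed at 6.25, 2.45 and 2.67 TPM in brown husk and at 0 in all 3 white libraries. Class III proteins are a small cytosolic class, in *Arabidopsis* represented by HSP17.4B, the Swiss-Prot match of this gene. No fold can be given against a group listed at 0. The fitted log2 difference of 2.17 ± 0.38 (SE, adjusted p = 0.0198 by limma) was 1.98 relative to all tested genes. It rests on the pseudocount of 1 TPM and became 5.15 with 0.1 TPM. The call was lost without brown replicate 3 (adjusted p = 0.0622), without white replicate 1 (adjusted p = 0.0548) and without white replicate 3 (adjusted p = 0.0752).

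The 7 genes fall into long and short assemblies. At a mean residue mass of 110 Da, proteins of the named masses need 466 to 505 coding bases, and the 4 longer members have 766 to 947 bases. The 17.3 kDa, 17.4 kDa and shorter 18.1 kDa genes have 418, 361 and 424 bases where 472, 475 and 494 would be needed. These 3 assemblies are thus shorter than the named masses would need and may be partial, though no reading frame was examined. The 3 short genes are the 3 members with a positive log2 fold change, and the 4 longer ones have a negative one. That split does not hold without brown replicate 1, where the short 18.1 kDa gene is at -0.17, nor for the 17.6 kDa gene without white replicate 2 (0.16) or brown replicate 2 (0.09). The part of assembly length in the result was not tested. In all, 3 of the 7 genes had every brown library below every white one, against 8.85% of tested genes, and 2 had every brown library above, against 20.2%.

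**Figure D2:**
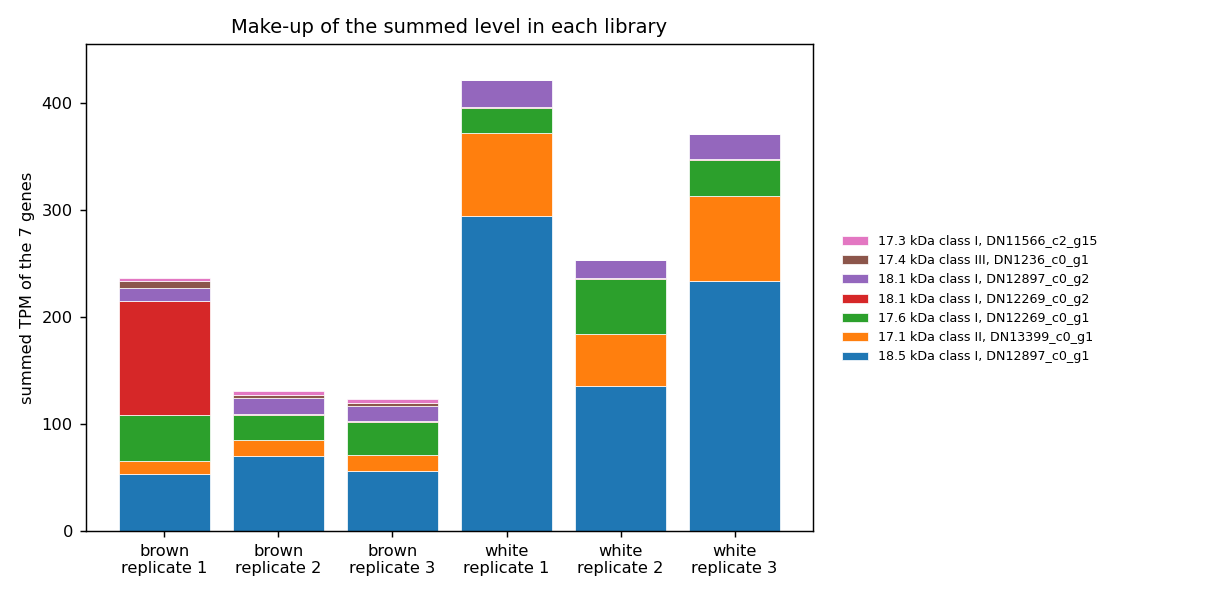
Summed TPM of the 7 genes in each library, stacked by gene on a linear axis from 0, brown libraries left and white libraries right. The 18.5 kDa gene and the 17.1 kDa class II gene make up most of the taller white bars, and the 18.1 kDa short gene fills 45.3% of the bar of brown replicate 1.

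Summed over the 7 genes, TPM was 236, 131 and 123 in the brown libraries and 421, 253 and 371 in the white ones. Without the 18.1 kDa short gene the sums were 129, 130 and 123 TPM in brown and 421, 252 and 370 TPM in white husk, so that brown replicate 1 no longer stood apart from the other brown libraries. The 18.5 kDa gene took 22.6%, 53.9% and 45.4% of the 7-gene sum in brown and 69.9%, 53.5% and 63.1% in white husk. The 17.1 kDa class II gene took 5.39%, 11.4% and 12.1% in brown and 18.3%, 19.4% and 21.4% in white husk, the groups not overlapping. TPM is corrected for length, which allows a comparison of levels between genes. The split between partners of 1 assembly cluster is uncertain, however, and 3 of the 7 may be partial assemblies.

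In order of level within white husk the 18.5 kDa gene stood above every other member in each library. The ranges of the next members overlapped, with 49.2 to 79.4 TPM for the 17.1 kDa class II gene, 24.0 to 50.9 TPM for the 17.6 kDa gene and 16.3 to 25.4 TPM for the longer 18.1 kDa gene. In brown husk the 18.5 kDa gene (53.4 to 70.7 TPM) stood above the 17.6 kDa gene (23.3 to 42.3 TPM). The class II gene (12.7 to 14.97 TPM) and the longer 18.1 kDa gene (12 to 14.8 TPM) did not differ beyond their spread there, although their white ranges did not overlap. The 17.4 kDa and 17.3 kDa short genes also shared a range in brown husk, 2.45 to 6.25 and 2.57 to 4.28 TPM.

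Across the 6 libraries the log2(TPM + 1) profiles of the 18.5 kDa gene and the class II gene had a Pearson r of 0.98, as did those of the 18.5 kDa gene and its longer 18.1 kDa partner. These correlations describe 6 libraries that share the contrast between varieties, and any other gene that differs between them correlates with them too. By the same measure the genes most like the 18.5 kDa gene, among 8715 other genes with a mean of at least 10 TPM and a naming description, were an ABC transporter G family member 11-like gene (TRINITY_DN14775_c1_g1, r = 0.998), related to an exporter of cuticle lipids in *Arabidopsis*, and a cyclic nucleotide-gated ion channel 1-like gene (TRINITY_DN13751_c0_g1, r = 0.997). They were followed by an At3g14840-like receptor kinase (TRINITY_DN14534_c0_g1, r = 0.996), a calcyclin-binding protein-like gene (TRINITY_DN13890_c0_g5, r = 0.995), an RPM1-interacting protein 4-like gene (TRINITY_DN10491_c0_g2, r = 0.995) and a histidine-rich glycoprotein-like gene (TRINITY_DN11075_c0_g1, r = 0.994). The transporter had 109, 146 and 123 TPM in brown and 431, 228 and 339 TPM in white husk. As for the 18.5 kDa gene, white replicate 2 was the lowest white library. In all, 251 of the 8715 candidates had an r of at least 0.9.

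All 7 members carry the HSP20 domain, as do 32 genes of the table, and the GO term for response to heat, which 0.699% of the 19456 genes with a GO term carry. Of the 7, 4 carry the terms for response to hydrogen peroxide and to high light intensity, which 0.221% and 0.247% of those genes carry. These 4 are the 18.5 kDa gene, both 18.1 kDa genes and the class III gene. These genes lay on both sides of the contrast, with the 18.5 kDa gene lower and the class III gene higher in brown husk.

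**Figure D3:**
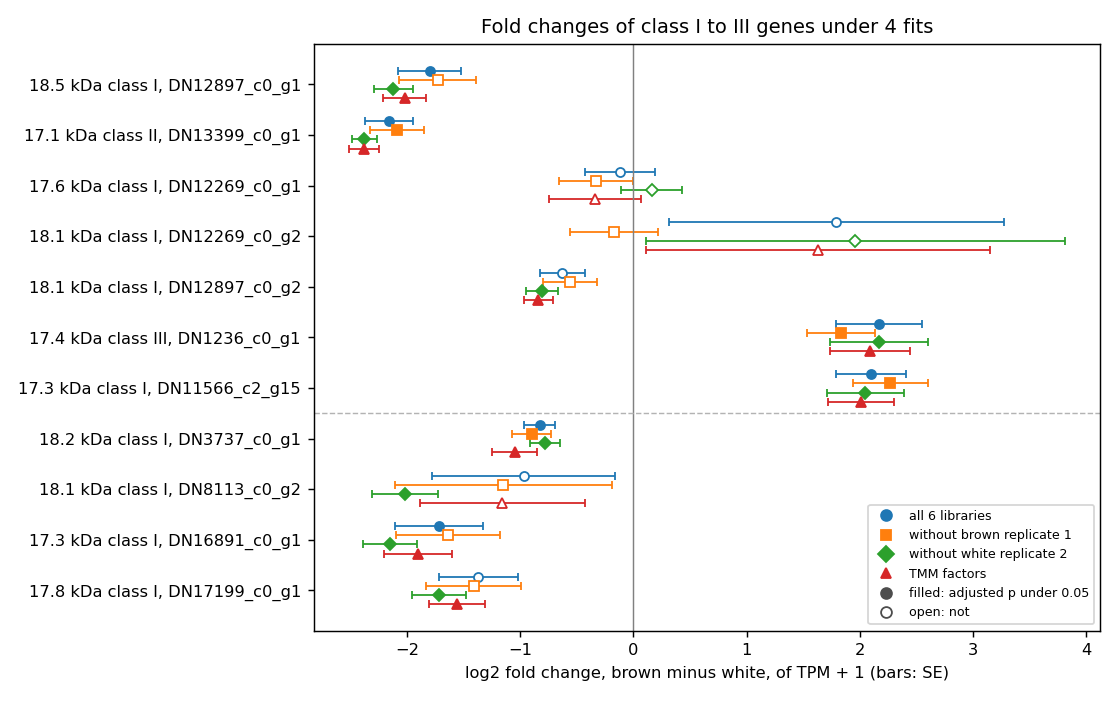
Log2 fold changes (brown minus white, of TPM + 1) with SE for the 7 genes above the dashed line and the 4 tested class I genes outside them below it, under 4 fits. Filled markers passed an adjusted p of 0.05 and open ones did not. The shorter 18.1 kDa gene turns from 1.79 to -0.17 when brown replicate 1 is left out.

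Of the 5 class I genes outside the 7, 4 were tested, and 2 of these were lower in brown husk (50.0%, against 2.17% of all genes) and none higher (limma, adjusted p under 0.05), with 3 at an unadjusted p under 0.05. An 18.2 kDa gene (TRINITY_DN3737_c0_g1) had 23.3, 18.7 and 21.8 TPM in brown and 38.6, 41.5 and 35.8 TPM in white husk, a difference of -0.83 ± 0.14 on the log2 scale (SE, adjusted p = 0.0196). White replicate 2 was its highest library. It still passed without brown replicate 1 or white replicate 2, but not without brown replicate 2 (adjusted p = 0.076), brown replicate 3 (0.0879), white replicate 1 (0.052) or white replicate 3 (0.0718). The longer 17.3 kDa gene named above differed by -1.72 ± 0.39 on the log2 scale (SE, adjusted p = 0.0482). Without white replicate 2 its adjusted p was 0.0119, and without any other 1 of the brown or white libraries it was 0.106 to 0.156. A 17.8 kDa gene (TRINITY_DN17199_c0_g1) had 4.07, 3.88 and 3.55 TPM in brown and 18.9, 6.75 and 11.7 TPM in white husk, with no overlap but an adjusted p of 0.0662, or 0.021 without white replicate 2. Another 18.1 kDa gene (TRINITY_DN8113_c0_g2) had 14.1, 8.36 and 10.7 TPM in brown and 60.6, 4.49 and 36.2 TPM in white husk. White replicate 2 was below every brown library for this gene, and the adjusted p was 0.534 with it and 0.021 without it.

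Over all 12 class I to III genes the sums were 306, 165 and 164 TPM in brown and 561, 313 and 472 TPM in white husk. Of the 11 tested genes 4 were lower (36.4%, against 2.17% of all genes) and 2 higher (18.2%, against 3.83%) by limma, and 8 had a negative log2 fold change. The 2 higher genes passed the filter of 1 TPM only through their brown libraries. The 7 members were chosen with earlier results known, so these shares are descriptions. The median log2 fold change of the 11 tested genes was -0.83, against -0.12 for the 7 chosen genes and 0.19 for all tested genes. Within white husk 6 of the 12 were lowest and 3 highest in replicate 2, and within brown husk 4 were lowest and 7 highest in replicate 1.

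**Figure D4:**
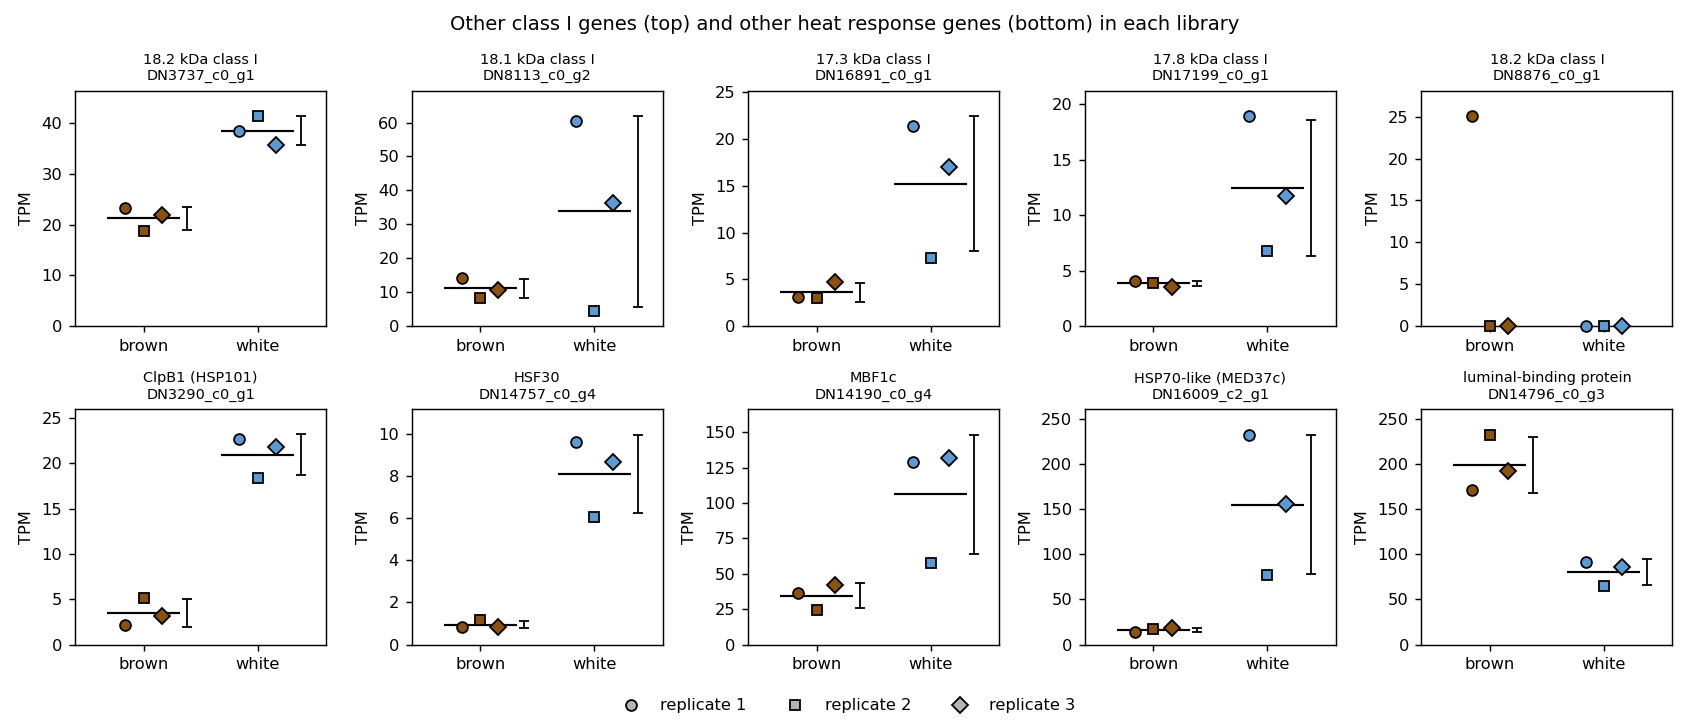
TPM in the brown (left) and white (right) libraries of the 5 class I genes outside the 7 (top) and of 5 other heat response genes (bottom), each panel on its own linear axis from 0. Lines and bars are means and SDs (n = 3), not drawn for the gene with libraries at 0. ClpB1, HSF30 and the MED37c HSP70-like gene are lower in every brown library than in any white one, and the luminal-binding protein gene is higher.

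Among other heat response genes, the share lower in brown husk was above that of all genes, and the share higher was near it. In the 8 lists of such genes, which include the small heat shock genes outside the 7, 16 of 200 tested genes were lower and 8 were higher than in white husk (limma, adjusted p under 0.05), with a median log2 fold change of -0.04 against 0.19 for all tested genes. These are 8.0% lower, against 2.17% of all genes, and 4.0% higher, against 3.83%. The number lower was 25 without white replicate 2, 9 without brown replicate 1, brown replicate 3 or white replicate 3, 8 without brown replicate 2 and 10 without white replicate 1. Over all 37829 tested genes 819 were lower, and 1013 were lower without white replicate 2. Without brown replicates 1, 2 and 3 in turn this was 425, 318 and 259, and without white replicates 1 and 3 it was 501 and 262. In the lists the number higher was 2 to 4 without any 1 library other than white replicate 2. In those same fits the number higher over all genes was 410 to 1037, against 1450 with all 6 libraries.

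Heat stress transcription factors had 1 of 30 tested genes lower by limma (3.33%, near the 2.17% of all genes) and none higher. At an unadjusted p under 0.05 there were 9, a count with no share of all genes to set beside it. The gene that fell was HSF30 (TRINITY_DN14757_c0_g4), whose tomato namesake is a heat-induced activator of chaperone genes also called HsfA2. It had 0.85, 1.15 and 0.85 TPM in brown and 9.65, 6.06 and 8.67 TPM in white husk, a log2 difference of -2.21 ± 0.29 (SE, adjusted p = 0.00833 by limma). In every brown library it lay below every white one, and it passed in all 6 fits that left out 1 library. Multiprotein-bridging factor 1c (TRINITY_DN14190_c0_g4), in *Arabidopsis* a coactivator needed for heat tolerance, had 36.7, 24.6 and 42.3 TPM in brown and 129, 57.7 and 132 TPM in white husk (log2 fold change -1.53 ± 0.35, limma adjusted p = 0.0477). Without white replicate 2 the adjusted p was 0.0134, and without any other 1 library it was 0.104 to 0.158. It was the only gene of the 6 other heat response genes to pass (16.7% lower, against 2.17% of all genes).

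Among the chaperones that work with small heat shock proteins, ClpB1 (TRINITY_DN3290_c0_g1), the cytosolic disaggregase HSP101, had 2.20, 5.18 and 3.13 TPM in brown and 22.7, 18.4 and 21.8 TPM in white husk. Its brown mean of 3.50 ± 1.52 TPM stood against 20.9 ± 2.28 TPM in white husk (SD, n = 3 each), a log2 difference of -2.33 ± 0.27 (SE, adjusted p = 0.00533 by limma), and it passed in all 6 fits that left out 1 library. The organelle forms ClpB3 and ClpB4, which complete that list of 3, did not pass (33.3% of the list lower, against 2.17% of all genes). Of 28 tested HSP70 genes 3 were lower (10.7%, against 2.17% of all genes) and 1 higher (3.57%, near the 3.83% of all genes). An HSP70-like gene described as mediator subunit 37c (TRINITY_DN16009_c2_g1) had 14.1, 16.7 and 18.1 TPM in brown and 232, 77.5 and 156 TPM in white husk, the groups not overlapping. Its assembly of 525 bases is short beside the 2381 bases of the luminal-binding protein gene named below, and may be partial. A gene of the chloroplast stromal form (TRINITY_DN15457_c0_g6) had a log2 fold change of -0.77 ± 0.17 and an adjusted p of 0.0421 by limma, which was 0.0143 without white replicate 2 and 0.0962 to 0.161 without any other 1 library. The gene that rose encodes luminal-binding protein (TRINITY_DN14796_c0_g3), the HSP70 of the endoplasmic reticulum, with 172, 233 and 193 TPM in brown and 91.4, 64.5 and 85.9 TPM in white husk (limma adjusted p = 0.0106, and 0.0529 without brown replicate 3).

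No HSP90 gene of 8 passed by limma (0%, against 3.83% higher and 2.17% lower among all genes), with 1 at an unadjusted p under 0.05. The most abundant HSP90 gene, heat shock cognate protein 80-like (TRINITY_DN12532_c0_g1), averaged 212 ± 23.4 TPM in brown and 263 ± 107 TPM in white husk (SD, n = 3 each). J-domain proteins, which deliver clients to HSP70, had 6 of 87 genes lower (6.90%, against 2.17% of all genes) and 5 higher (5.75%, near the 3.83% of all genes). A DnaJ homolog subfamily B member 6 gene (TRINITY_DN12193_c0_g1) had 21.6, 26.5 and 26.9 TPM in brown and 135, 136 and 126 TPM in white husk. Its log2 fold change was -2.36 ± 0.14 (SE) with an adjusted p of 0.000313 by limma, and it passed in all 6 fits that left out 1 library. A related member 6-like gene (TRINITY_DN15028_c0_g2) averaged 97.9 ± 12.9 TPM in brown and 275 ± 2.89 TPM in white husk, and dnaJ protein homolog 2-like (TRINITY_DN13186_c0_g5) averaged 132 ± 8.77 TPM in brown and 74.2 ± 5.34 TPM in white husk (SD, n = 3 each). The call of the homolog 2-like gene (limma adjusted p = 0.0133) was lost without brown replicate 1 (0.0509), brown replicate 2 (0.0549), brown replicate 3 (0.0616) or white replicate 3 (0.0732), and with TMM factors (0.125). Among co-chaperones 1 of 21 was higher (4.76%, near the 3.83% of all genes), a low BAG family regulator 2-like gene (TRINITY_DN14325_c0_g1) listed at 2.31, 3.87 and 2.73 TPM in brown and at 0.32, 0.35 and 0 TPM in white husk. This gene passed the filter of 1 TPM only through its brown libraries. Its adjusted p by limma was 0.0271, and it stayed under the threshold without white replicate 2 (0.0456) but without any other 1 library was 0.0506 to 0.106. Small heat shock genes outside class I to III had 2 of 13 lower (15.4%, against 2.17% of all genes) and 1 higher (7.69%, against 3.83%). A chloroplast form (TRINITY_DN1497_c0_g1) had 16.6, 14.2 and 14.3 TPM in brown and 46.5, 38.6 and 39.8 TPM in white husk, and a peroxisomal form (TRINITY_DN15363_c0_g1) averaged 4.38 ± 0.627 TPM in brown and 21.3 ± 6.75 TPM in white husk. The higher gene, a class VI form (TRINITY_DN10398_c0_g1) named after its values were seen, was listed at 5.43, 3.84 and 3.3 TPM in brown and at 0.11, 0 and 0 TPM in white husk, with an adjusted p of 0.00881 by limma. It reached 1 TPM in brown libraries alone, and passed in all 6 fits that left out 1 library. Another class VI gene of its assembly cluster (TRINITY_DN10398_c0_g2) was more abundant and was not called (limma adjusted p = 0.838). That gene had 14.0, 10.2 and 10.5 TPM in brown and 19.1, 5.72 and 20.4 TPM in white husk.

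Genes of other tissues that could lie in a husk sample also differed in places. Both listed seed genes, which encode oleosin 1-like proteins of oil bodies, had every brown library below every white one, as did 8.85% of tested genes. They summed to 20.4, 12.3 and 23.9 TPM in brown and 52.0, 36.2 and 40.1 TPM in white husk. Of the 2 genes, 1 was called lower (50.0%, against 2.17% of all genes). The gene TRINITY_DN17035_c0_g1 passed the threshold (limma adjusted p = 0.0487), though in no fit that left out 1 library, and the other did not (TRINITY_DN1532_c0_g1, adjusted p = 0.0706). No gene description matched vicilin or legumin, storage proteins also sought in the seed list. Small heat shock proteins also accumulate in maturing seeds, and the part of seed or other tissue in the levels above was not tested. The 6 secondary wall genes summed to 18.7, 20.0 and 18.6 TPM in brown and 21.7, 17.1 and 18.5 TPM in white husk, and 3 had a negative log2 fold change. Those 3, an IRX15-LIKE-like gene (-0.70) and 2 cellulose synthase A subunit 8 genes (-0.53 and -1.45), were not called. They had every brown library below every white one, against 8.85% of tested genes. The other 3 had every brown library above, against 20.2%. Of the 6, 1 was higher in brown husk (16.7%, against 3.83% of all genes), a cellulose synthase A subunit 7 gene (TRINITY_DN15855_c0_g2, limma adjusted p = 0.0151). The call was lost without brown replicate 2 (0.0592), brown replicate 3 (0.0553) or white replicate 3 (0.0623). The gene was listed at 3.56, 4.76 and 3.06 TPM in brown and at 0.37, 0 and 0.24 TPM in white husk, and reached 1 TPM in brown libraries alone. Another subunit 7 gene of its assembly cluster (TRINITY_DN15855_c0_g4) was not called (limma adjusted p = 0.6).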

How the data were processed

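Husk RNA of 3 brown and 3 white libraries was sequenced. The authors deposited TPM per assembled gene, 1 column per library. Cutadapt and FastQC are named without versions, per the submitters' processing notes, and the identifiers are those of Trinity assemblies, per the file headers and gene names. The sources used here name neither the quantifier nor the annotation versions. Each listed gene reaches at least 2.01 TPM in some library, and columns sum to 994877 to 996692 TPM, so depth is unknown. The deposited gene length in bases served to compare assemblies.

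From these values log2(TPM + 1) was fitted with limma 3.58.1 in R 4.3.3, with a mean-variance trend and no covariate, over the 37829 genes that reached 1 TPM in 3 or more libraries. Benjamini-Hochberg adjustment ran over all of them, and calls were made at 0.05. The fit was tested on simulated data with the same noise in every library, in which only genes above a low level were changed. That test does not cover an outlying library or calls of genes of very low level. Groups follow the colour in the labels.

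Members and lists were chosen with earlier results of these data known. The 8 heat response and 3 marker lists are text patterns on gene descriptions, of which 5 were corrected for false matches after descriptions and some values had been seen. Named genes are the 7 members, up to 3 called genes of highest mean TPM per list (or, with none, the most abundant gene), and the 6 genes most like the top member. Values of the other class I genes, of the class VI genes, of the uncalled secondary wall genes and of the genes high in 1 library were added after they were seen. Alternatives were pseudocounts of 0.1 and 0.5 TPM, dropping the filter or raising it to 5 TPM, quantile normalization, TMM factors (computed without weights), a fit without the trend, array weights, replicate numbers as a block, and leaving out each library. Leaving out white replicate 2 together with brown replicate 1 was chosen after seeing the data. No sequences of these genes were used here.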

Additional observations from a re-analysis of the deposited data

How the results depend on the processing

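Of the 7 genes, the 17.1 kDa class II gene was called in all 16 alternatives (log2 fold change -2.38 to -2.04) and the 18.5 kDa gene in 13 of 16. Leaving out 1 library in turn gave log2 fold changes of -2.12 to -1.56 for the 18.5 kDa gene, -0.37 to 0.16 for the 17.6 kDa gene, -0.17 to 2.78 for the short 18.1 kDa gene, -0.81 to -0.51 for the longer 18.1 kDa gene, 1.83 to 2.37 for the class III gene and 1.99 to 2.27 for the 17.3 kDa gene. The 17.6 kDa gene also turned with array weights (0.06), and the longer 18.1 kDa gene passed with TMM factors (-0.84) and quantile normalization (-0.75). Without both white replicate 2 and brown replicate 1, a choice made after seeing the data, the short 18.1 kDa gene was at -0.00393, the class III gene lost its call (1.83, limma adjusted p = 0.0583), and 1 member was higher. With a filter of 5 TPM, 0 members were higher, since neither higher gene was tested. Leaving out 1 library gave 0 to 2 members higher and 1 to 3 lower, 410 to 1255 genes higher and 259 to 1013 lower over all genes, and 2 to 8 higher and 8 to 25 lower in the 8 heat response lists. Over all genes 1450 were higher and 819 lower, against 1297 and 1214 with TMM factors and 1259 and 1275 with quantile normalization. Without the trend 1267 were higher and 622 lower over all genes. In the 8 lists 8 were higher and 16 lower in the main fit. There 5 were higher and 24 lower with TMM factors, 8 and 23 with quantile normalization, and 4 and 10 without the trend. Of named genes outside the 7, heat shock cognate protein 80-like ranged from -0.58 to 0.05 with 1 library left out, and a Rubisco small chain gene from -0.13 to 0.62, with -0.02 under TMM factors and -0.09 without both libraries. The cause of these changes was not tested.

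Libraries with the same replicate number correlated at r = 0.0572, 0.0561 and 0.0109 in their deviations from the group means, each under 0.1, so the numbers were not taken to pair the samples, although every library correlated best with its own number. With the replicate block, 735 genes were higher and 490 lower, 1 member was higher and 2 lower, and 5 genes of the 8 lists were higher and 12 lower. The class III gene then had a log2 fold change of 2.17 with a limma adjusted p of 0.0524. The block also ended the calls of 6 named genes outside the 7, with limma adjusted p-values of 0.0555 for TRINITY_DN3737_c0_g1, 0.0586 for TRINITY_DN16891_c0_g1, 0.0852 for TRINITY_DN15457_c0_g6, 0.0669 for TRINITY_DN14325_c0_g1, 0.0893 for TRINITY_DN17035_c0_g1 and 0.0555 for TRINITY_DN15855_c0_g2. TPM without read numbers limits what can be said of the genes listed at 0.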
